A study of Sus scrofa with 18 samples.

Results

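SLC34A1 and SLC34A2 encode sodium-phosphate cotransporters of the SLC34 family, and were followed here over a time course of all-trans retinoic acid (ATRA) in LLC-PK1 cells, an established epithelial line from the kidney of a male Hampshire pig. All probe sets annotated to either symbol were taken, which gave 1 probe set for SLC34A1 (15314268) and 1 for SLC34A2 (15322460), 2 of the 12361 named genes and of the 27558 probe sets on the array. The SLC34A1 probe set is named by its symbol alone, since its Entrez identifier is not in the RefSeq gene table. Cells had grown past confluence before ATRA was added. RNA was taken at 0 h (untreated) and at 0.5, 1, 4, 8 and 12 h of ATRA, with 3 biological replicates at each of the 6 times, and each of the 18 arrays gave a log2 signal for every probe set. The sources used here do not state the dose of ATRA. Since the untreated cells were sampled at 0 h alone, the effects of ATRA and of time in culture cannot be told apart.

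SLC34 proteins sit in the apical membrane of epithelia and use the inward sodium gradient to take up inorganic phosphate. SLC34A1 (NaPi-IIa) is the main route by which the renal proximal tubule reclaims phosphate from the filtrate, and parathyroid hormone and FGF23 lower its amount at the brush border. SLC34A2 (NaPi-IIb) is best known from the small intestine and from the alveolar type II cells of the lung. The third member, SLC34A3 (NaPi-IIc), works beside SLC34A1 in the kidney.

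No change of either gene was detected in the first hour, and both had moved, in opposite directions, by 4 h. After 4, 8 and 12 h SLC34A2 stood 6.68, 5.32 and 3.59 times above its 0 h signal, while SLC34A1 fell 1.85-fold, 1.74-fold and 1.64-fold (3 arrays per time). Neither change had returned to the starting signal at 12 h.

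In the arrays, the pattern of SLC34A2 was as follows. Its log2 signal in replicates 1, 2 and 3 was 4.69, 4.55 and 4.58 at 0 h, 4.65, 4.54 and 4.57 at 0.5 h, and 4.99, 4.52 and 4.61 at 1 h. It was 7.22, 7.06 and 7.76 at 4 h, 7.02, 6.85 and 7.19 at 8 h, and 6.18, 6.51 and 6.67 at 12 h. Every array from 4 h onward thus lay above every array of the first hour, by more than the spread within any time. The mean with its SD (n = 3) went from 4.61 ± 0.076 before treatment to 7.35 ± 0.37 after 4 h, 7.02 ± 0.17 after 8 h and 6.45 ± 0.25 after 12 h. The 0 h mean was below the median of all probe sets on each array, which ran from 5.59 to 5.67, and no detection call came with the values.

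The arrays of SLC34A1 moved the other way. Its log2 signal in replicates 1, 2 and 3 was 7.15, 7.15 and 7.36 at 0 h, 7.15, 7.09 and 7.53 at 0.5 h, and 7.04, 7.11 and 7.49 at 1 h. It was 6.52, 6.31 and 6.18 at 4 h, 6.57, 6.30 and 6.39 at 8 h, and 6.61, 6.49 and 6.42 at 12 h. The 9 arrays of 4 to 12 h all lay below the 9 arrays of 0 to 1 h, with a gap between 6.61 and 7.04. Replicate 3 held the highest SLC34A1 signal at 0, 0.5 and 1 h and the highest SLC34A2 signal at 4, 8 and 12 h. Signals of different probe sets are not on a shared scale, so no level of SLC34A1 is set against one of SLC34A2.

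**Figure D1:**
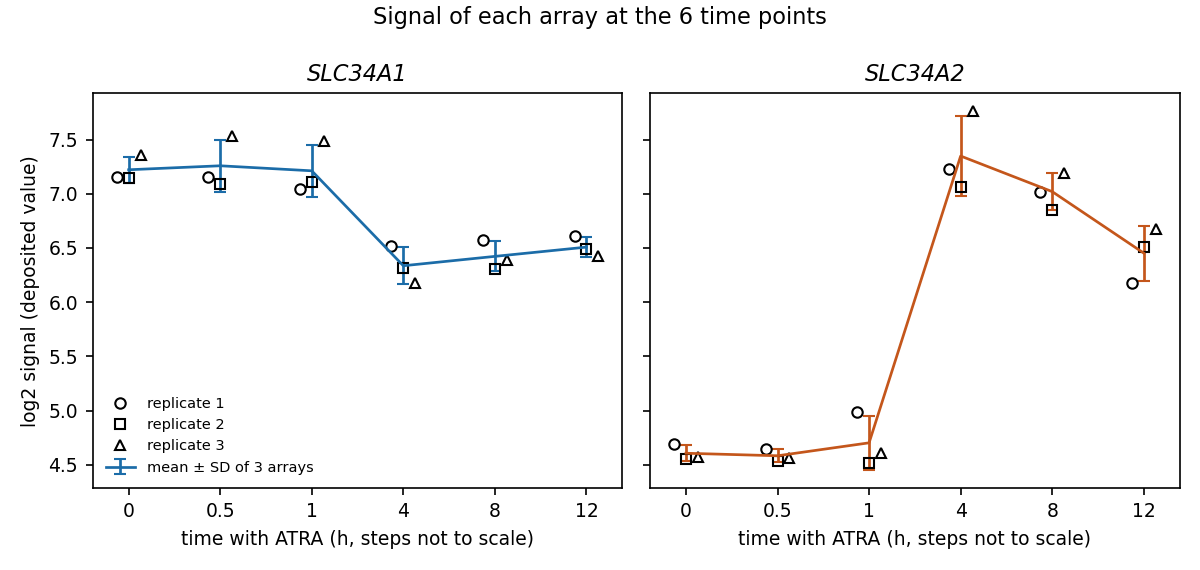
Log2 signal of SLC34A1 (left) and SLC34A2 (right) in each of the 18 arrays against time with ATRA in hours, with the symbol giving the replicate number and the line the mean ± SD of 3 arrays. SLC34A1 lies between 7.04 and 7.53 up to 1 h and between 6.18 and 6.61 from 4 h, and SLC34A2 between 4.52 and 4.99 up to 1 h and between 6.18 and 7.76 from 4 h.

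The first comparisons asked whether either gene moved within the first hour. SLC34A2 differed from 0 h by -0.023 on the log2 scale at 0.5 h (95% interval -0.39 to 0.35) and by 0.096 at 1 h (-0.27 to 0.46). For SLC34A1 the differences were 0.037 at 0.5 h (-0.27 to 0.34) and -0.0097 at 1 h (-0.31 to 0.29). The comparisons with 0 h share its 3 arrays. All 4 had an adjusted p of 1.00 in limma's moderated test with Benjamini-Hochberg adjustment over all probe sets, so no change was detectable, and shifts within those intervals cannot be told from none. At 0.5 h 0.232% of all probe sets passed and at 1 h 0.766%.

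At 4 h SLC34A2 was higher than at 0 h by 2.74 ± 0.17 (SE) on the log2 scale, with an adjusted p of 9.43e-07 in limma, and ranked 6 by size among the rises of 27558 probe sets. The difference after 8 h was 2.41 ± 0.17 (adjusted p = 5.31e-06, rank 5), and after 12 h it was 1.85 ± 0.17 (adjusted p = 8.02e-05, rank 9). Its 3 arrays lay above all 3 arrays of 0 h at each of these times, as did those of 13.8% of all probe sets at 4 h, 11% at 8 h and 12.1% at 12 h. The share of probe sets that passed as higher was 6.31% at 4 h, 3.23% at 8 h and 1.13% at 12 h. Omitting any single array of the times compared kept each of these calls, the highest adjusted p being 0.00115, at 12 h. When all 6 arrays of replicate 2 were left out, the 12 h difference was 1.79 with an adjusted p of 0.0658.

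SLC34A1 differed from 0 h by -0.88 ± 0.14 (SE) on the log2 scale at 4 h (adjusted p = 0.000753). The later differences were -0.80 ± 0.14 for 8 h (adjusted p = 0.00408) and -0.71 ± 0.14 for 12 h (0.0151). Its arrays lay below all arrays of 0 h at the 3 times, and 13.1%, 10.9% and 14.2% of all probe sets did so at 4, 8 and 12 h. As lower, 6.63% of probe sets passed at 4 h, 2.87% at 8 h and 1.51% at 12 h. By size, the 4 h fall ranked 343 among the falls of all probe sets. The 12 h call was lost without replicate 3 of 0 h (adjusted p = 0.071), replicate 2 of 12 h (0.055) or replicate 3 of 12 h (0.0787), whereas no omission of a single array ended the calls at 4 and 8 h. Leaving out all arrays of replicate 2 ended all 3 calls (adjusted p = 0.0789, 0.227 and 0.371, with differences of -0.91, -0.78 and -0.74), and leaving out those of replicate 3 ended the calls at 8 and 12 h (0.0681 and 0.19, with -0.71 and -0.60).

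Over the whole course, limma's moderated F test gave SLC34A2 an adjusted p of 1.13e-07, ranked 4 of 27558 by p, and SLC34A1 an adjusted p of 0.000255, ranked 406, while 15.7% of all probe sets passed. Without all arrays of replicate 2, the adjusted p of SLC34A1 was 0.0847.

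The comparisons of neighbouring times asked when the genes moved. From 1 to 4 h SLC34A2 rose by 2.64 ± 0.17 (adjusted p = 3.05e-06), ranked 2 among the rises, and SLC34A1 changed by -0.88 ± 0.14 (adjusted p = 0.00095). In that step 5.68% of all probe sets passed as higher and 4.94% as lower. The SLC34A1 step did not pass without all arrays of replicate 2 (adjusted p = 0.0859) or of replicate 3 (0.055, with a difference of -0.66). From 0.5 to 1 h neither gene passed, with 0.12 for SLC34A2 (adjusted p = 0.981) and -0.046 for SLC34A1 (0.993), while 0.559% of all probe sets did.

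After 4 h the mean signal of SLC34A2 lay lower at each later time. From 4 to 8 h it differed by -0.33 ± 0.17 (adjusted p = 0.375) with overlapping arrays, and from 8 to 12 h by -0.57 ± 0.17 (adjusted p = 0.731, unadjusted 0.00503). In limma 0 of 27558 probe sets passed in the step from 8 to 12 h. An unadjusted p under 0.05 was held by 1608, a share only slightly above the 0.05 expected with no change. Between 4 and 12 h, a comparison added after the values were seen, SLC34A2 fell by 0.90 ± 0.17 on the log2 scale (adjusted p = 0.00521, 4.47% of probe sets passing as lower). That call was lost when the 6 arrays of the 2 times were fitted alone (adjusted p = 0.0801), and without all arrays of replicate 2 (0.103) or replicate 3 (0.126). In order of level, the SLC34A2 means at 4, 8 and 12 h stood above those of the first hour, and in this fit the pair that differed among the later times was 4 and 12 h.

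None of the later steps passed for SLC34A1. Its differences were 0.086 ± 0.14 from 4 to 8 h (adjusted p = 0.827), 0.085 ± 0.14 from 8 to 12 h (0.947) and 0.17 ± 0.14 from 4 to 12 h (0.593, 95% interval -0.13 to 0.48). The 12 h difference from 0 h was 80.6% of the 4 h difference for SLC34A1 and 67.3% for SLC34A2, both on the log2 scale.

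To compare the 2 genes within each array, the log2 signal of SLC34A1 was subtracted from that of SLC34A2. The offset of this difference depends on the probes, and its shift over time shows how unequally the genes changed. The difference was -2.61 ± 0.16 (SD, n = 3) at 0 h, -2.67 ± 0.25 at 0.5 h and -2.51 ± 0.42 at 1 h. It was 1.01 ± 0.50 at 4 h, 0.60 ± 0.18 at 8 h and -0.055 ± 0.35 at 12 h. The shift from 0 h was 3.62 at 4 h, 3.21 at 8 h and 2.56 at 12 h, with every later array above every 0 h array. The two-sided exact permutation p was 0.1 at each of these 3 times, the smallest that 3 arrays against 3 allow, and 0.167 after adjustment over the 5 times. At 0.5 and 1 h the shifts were -0.060 and 0.11 (exact permutation p = 0.8 in both).

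**Figure D2:**
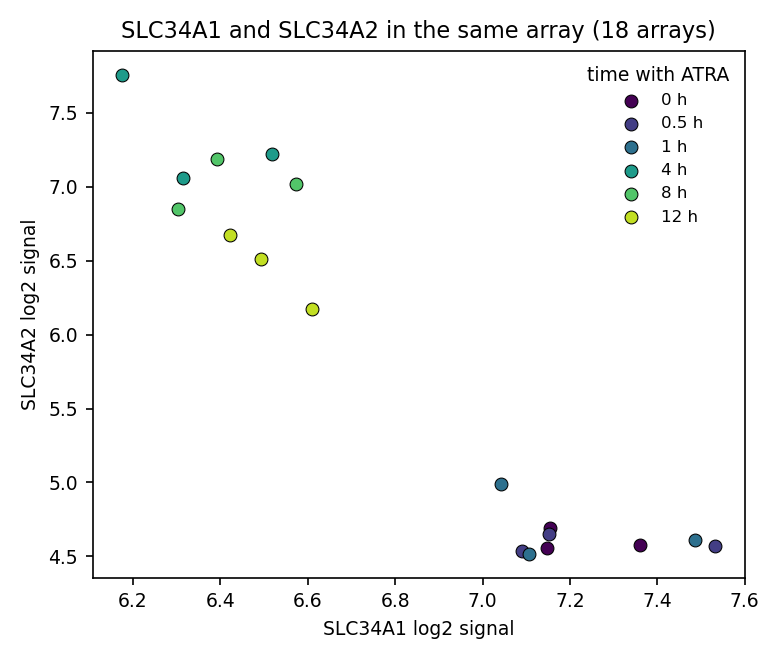
Log2 signal of SLC34A2 (vertical) against that of SLC34A1 (horizontal) in the same array, 1 point per array, coloured by time with ATRA. The 9 arrays of 0 to 1 h sit at the lower right and the 9 arrays of 4 to 12 h at the upper left, with no array between SLC34A1 signals of 6.61 and 7.04.

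The cells were checked against markers of the labelled tissue, and of other cells in which SLC34A2 is known or which a culture could hold. The 8 measured proximal tubule markers had 0 h means from 6.87 (PCK1) to 11.80 (LRP2), all above the array medians, and the 4 epithelial markers from 10.08 (EPCAM) to 11.62 (KRT19). Some markers of other cells were as bright, among them ATP6V1B1 of the collecting duct (12.44), COL1A2 of fibroblasts (11.86), SLC12A1 of the thick limb (7.94) and CD3E of T cells (7.85). Signals of different probe sets are not comparable, so these levels alone do not settle what the cells are. Of 9 measured markers of alveolar type II cells and other SLC34A2-bearing epithelia (0 h means from 2.40 for CSN2 to 5.65 for NAPSA and 6.40 for ABCA3, with the surfactant genes SFTPA1, SFTPB, SFTPC and SFTPD at 3.11, 3.65, 4.13 and 4.89), 0 were called in limma at the 5 later times. Their summed log2 signal was 38.1 to 38.7 at 0 h and 38.7 to 40.01 at 4 h. None of 4 endothelial, 5 leukocyte or 6 collecting duct markers was called either, and of 5 thick limb and distal tubule markers 1 (SLC12A1) was called, as lower at 12 h. Of all probe sets, 6.31%, 3.23% and 1.13% passed as higher at 4, 8 and 12 h, and 6.63%, 2.87% and 1.51% as lower. At those shares sets this small would hold few calls, so a lack of calls says little about the cells.

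Fibroblast markers summed to 32.7 to 33.2 at 0 h and 33.4 to 35.1 at 4 h. Of these 1 of 6 was called, COL1A1, which was higher by 0.93 ± 0.18 at 4 h (adjusted p = 0.00245 in limma). At 4 h 6.31% of all probe sets passed as higher. The 4 measured epithelial markers summed to 43.1 to 44.2 at 0 h and 44.9 to 46.4 at 4 h, with KRT8 called as higher at 4 and 12 h and KRT19 at 4, 8 and 12 h. The 7 measured proximal tubule markers other than SLC34A1 summed to 67.2 to 68.0 at 0 h and 64.8 to 66.4 at 4 h. With SLC34A1 counted, 4 of 8 passed as lower at 4 h and at 8 h (50% each, against 6.63% and 2.87% of all probe sets). At 12 h 2 of 8 did (25%, against 1.51%). HNF4A passed as higher at 8 and 12 h (12.5% of the 8, against 3.23% and 1.13%). The part of these shifts in the changes of SLC34A1 and SLC34A2 was not tested. In bulk RNA, fewer cells of a kind and less RNA per cell cannot be told apart.

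Among the other phosphate carriers, SLC20A1 rose and then fell, and the third SLC34 gene passed at no single time in the fit without replicate numbers. A list of 11 such genes had 8 measured, and all 8 are described here. Of the 34 calls on the lists of carriers, scaffolds, hormonal genes, transcription factors and proximal tubule genes, leaving out all arrays of replicate 1 ended 7, of replicate 2 33 and of replicate 3 33, with STC2 at 4 h the call kept in all 3 of these fits, which hold 2 arrays per time. Among the carriers, at 4 h 1 of 8 passed as higher and 1 as lower (12.5% each, against 6.31% and 6.63% of all probe sets), at 8 h 1 as lower (2.87% of all), and at 12 h 3 as lower (37.5%, against 1.51%). The list's median difference from 0 h was -0.12 at 4 h, -0.35 at 8 h and -0.45 at 12 h, where the median over all probe sets was 0.018, -0.0061 and -0.0067.

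SLC34A3 had log2 signals of 6.34, 6.48 and 6.01 at 0 h, 6.38, 6.19 and 5.88 at 4 h, 6.02, 5.58 and 5.998 at 8 h, and 5.66, 5.58 and 5.13 at 12 h. The 12 h arrays all lay below the 0 h arrays, as did those of 14.2% of all probe sets, while the 4 h arrays overlapped those of 0 h. Its difference from 0 h was -0.13 ± 0.23 at 4 h (adjusted p = 0.818), -0.41 ± 0.23 for 8 h (0.373) and -0.82 ± 0.23 for 12 h (0.0725), and its F test over the whole course passed (adjusted p = 0.0371).

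SLC20A1 (PiT-1), a sodium-phosphate cotransporter of a separate family found in most cells, had signals of 10.39, 10.44 and 10.19 at 0 h, 10.77, 10.68 and 10.56 at 1 h, 10.84, 11.01 and 10.93 at 4 h, 10.15, 9.97 and 10.004 at 8 h, and 10.02, 9.89 and 9.69 at 12 h. All arrays of 4 h lay above those of 0 h, as did those of 13.8% of all probe sets. All arrays of 8 and 12 h lay below, as did those of 10.9% and 14.2% of all probe sets. In the fit without replicate numbers the differences at 1 h (0.33, adjusted p = 0.398 in limma) and 8 h (-0.30, 0.15) did not pass. The difference from 0 h passed as higher at 4 h (0.59 ± 0.11, adjusted p = 0.00242) and as lower at 12 h (-0.47 ± 0.11, adjusted p = 0.0362). It fell by 0.89 ± 0.11 from 4 to 8 h (adjusted p = 0.00147, with 1.49% of all probe sets passing as lower). With single arrays of 0 and 12 h omitted in turn, the 12 h call was lost 4 times in 6, and its adjusted p reached 0.193.

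SLC37A4, the glucose-6-phosphate and phosphate exchanger of the endoplasmic reticulum, fell at 4 h (-0.36 ± 0.10, adjusted p = 0.0249), 8 h (-0.63 ± 0.10, 0.00179) and 12 h (-0.51 ± 0.10, 0.0127). Single omissions ended its 4 h call 5 times in 6 and its 12 h call 2 times in 6, and its 8 h call in none. SLC17A3, an organic anion transporter of the family first described as type I phosphate transporters, was at -0.75 ± 0.19 at 12 h (adjusted p = 0.0446), which all 6 single omissions ended (highest adjusted p 0.199). Its relative SLC17A1 differed by replicate number, with replicate 1 lowest and replicate 3 highest at all 6 times. Its signal was 9.22, 10.14 and 10.48 at 0 h, 9.19, 9.43 and 9.83 at 8 h, and 8.95, 9.66 and 9.93 at 12 h, lower in each replicate than at 0 h. The fit without replicate numbers gave -0.43 ± 0.43 for 12 h (adjusted p = 0.751).

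The remaining carriers did not pass at any of the 5 times. XPR1, the phosphate exporter of the plasma membrane, differed from 0 h by -0.064 ± 0.087 at 4 h (95% interval -0.25 to 0.12). For SLC25A3, the phosphate carrier of the inner mitochondrial membrane, the 4 h difference was -0.079 ± 0.081 (-0.25 to 0.093). ANKH, a membrane protein of pyrophosphate and ATP release, was at -0.39 ± 0.13 at 12 h (adjusted p = 0.15).

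**Figure D3:**
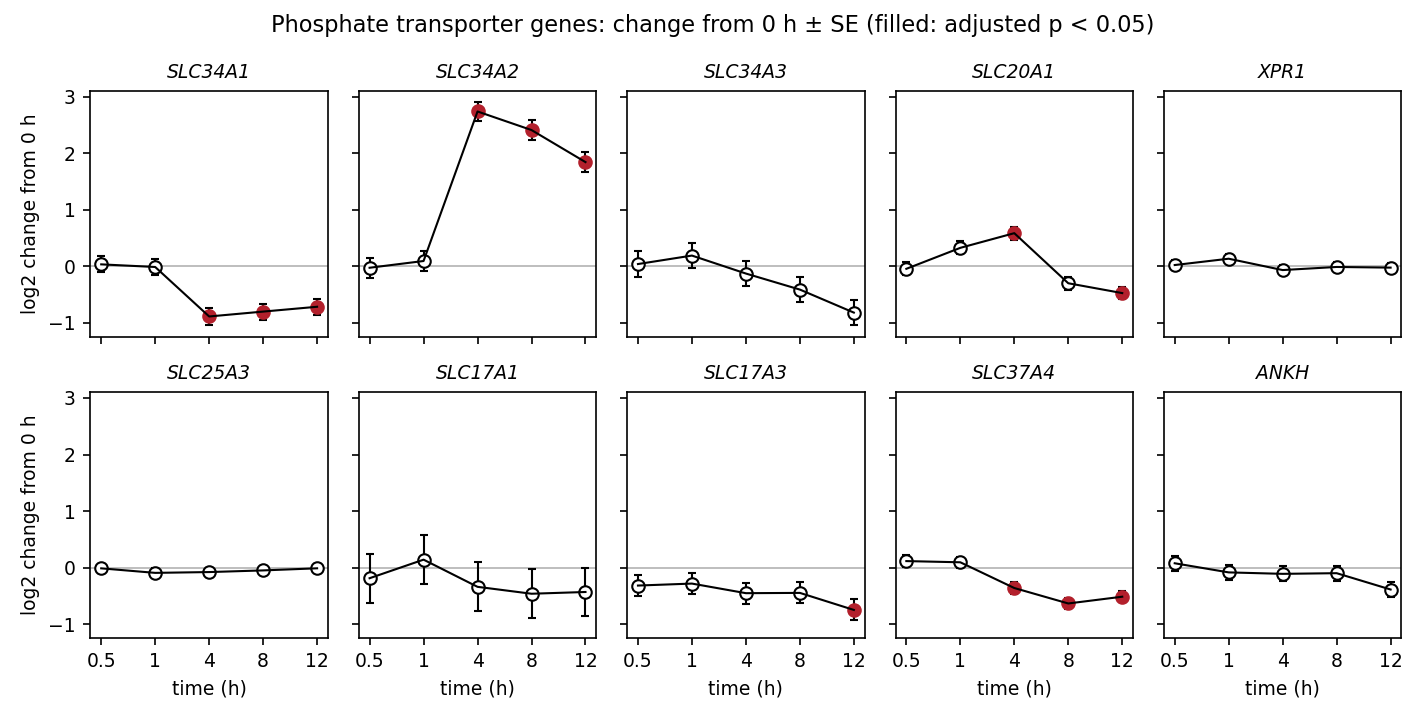
Log2 change from 0 h (vertical, ± SE of the model) against time with ATRA in hours for SLC34A1, SLC34A2 and the 8 other measured phosphate carriers, with filled points where the adjusted p was under 0.05. SLC34A2 peaks at 2.74 at 4 h, and SLC20A1 goes from 0.59 at 4 h to -0.47 at 12 h. SLC34A3 reaches -0.82 at 12 h without passing in this fit, which does not use the replicate numbers.

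Genes for proteins that hold SLC34A1 at the brush border, or carry it inward, changed in RNA signal in few cases. Of 11 measured genes on this list 1 passed as lower at 4 h (9.09%, against 6.63% of all probe sets) and 1 as lower at 8 h (9.09%, against 2.87%), and 0 passed in limma at 12 h. SLC9A3R1 (NHERF1), the PDZ scaffold that binds the tail of SLC34A1, went from 9.96 to 10.26 at 0 h to 9.54 to 9.80 at 8 h (-0.44 ± 0.11, adjusted p = 0.0268), and 4 of 6 single omissions ended this call. DAB2, an adaptor of clathrin-coated pits that serves megalin, fell by 0.76 ± 0.18 on the log2 scale at 4 h (adjusted p = 0.00968), with 4 h arrays from 7.96 to 8.95, and stood at -0.012 at 8 h (0.984). Of 6 single omissions 1 ended the DAB2 call (adjusted p = 0.0539). The 4 h differences of the second scaffold SLC9A3R2 (0.034 ± 0.12), of EZR, which links the scaffold to actin (-0.15 ± 0.13), and of its relative RDX (-0.18 ± 0.085) did not pass.

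Genes of hormonal phosphate control were led by STC2, a secreted stanniocalcin whose relatives act on mineral balance. STC2 lay between 4.96 and 5.18 at 0 h and between 6.43 and 6.72 at 4 h, a 2.79-fold rise (1.48 ± 0.11, adjusted p = 1.69e-06). Its differences from 0 h then were 0.54 ± 0.11 for 8 h (adjusted p = 0.00658) and 0.38 ± 0.11 for 12 h (0.0704). CYP24A1, the enzyme that inactivates vitamin D hormone, passed at 4 h (0.72 ± 0.15, adjusted p = 0.00413), but its arrays of both 0 h (2.51 to 2.77) and 4 h (3.08 to 3.66) lay under the lower quartile of every array (3.73 to 3.83). GALNT3, which glycosylates FGF23, passed at 8 h (0.77 ± 0.20, adjusted p = 0.0316), with 3 of 6 single omissions ending the call. In all, 2 of 17 measured genes passed as higher at 4 h and 2 at 8 h (11.8% each, against 6.31% and 3.23% of all probe sets), and none as lower.

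Receptors on this list did not pass. The 4 h differences were -0.11 ± 0.13 for PTH1R, the parathyroid hormone receptor, -0.067 ± 0.16 for KL, the FGF23 co-receptor Klotho, and 0.29 ± 0.096 for FGFR1 (adjusted p = 0.673, 0.874 and 0.0593). PTH1R had a 0 h mean of 4.15, in the lower part of the array's range.

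Of 20 measured transcription factors of the proximal tubule, of SLC34 genes and of retinoid and thyroid hormone response, 3 rose and 3 fell at 4 h (15% each, against 6.31% and 6.63% of all probe sets). At 8 h 2 rose and 1 fell (10% and 5%, against 3.23% and 2.87%), and at 12 h 1 rose and 2 fell (5% and 10%, against 1.13% and 1.51%). NR1H4, the bile acid receptor FXR, fell 2.28-fold at 4 h (-1.19 ± 0.24, adjusted p = 0.00417) and stood at -0.39 at 8 h (0.445). HNF4A, a factor of proximal tubule identity, moved the other way and later, from 8.16 to 8.41 at 0 h to 9.08 to 9.56 at 12 h (1.09 ± 0.17, adjusted p = 0.00306), while SLC34A1 was low. Its 8 h call (0.69 ± 0.17, adjusted p = 0.0265) did not outlast 5 of 6 single omissions.

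GATA6, an endodermal and epithelial factor, was higher by 0.80 ± 0.17 at 4 h (adjusted p = 0.0044) and stood at 0.30 at 8 h (0.367). RARA, which binds retinoic acid, had a difference of 0.49 ± 0.090 for 4 h (adjusted p = 0.00191) and of 0.33 ± 0.090 for 8 h (0.0426, ended by 5 of 6 single omissions). PPARA, a fatty acid receptor, was lower at 4 h (-0.39 ± 0.11), 8 h (-0.55 ± 0.11) and 12 h (-0.56 ± 0.11, adjusted p = 0.0123), its 4 h call being ended by 5 and its 12 h call by 2 of 6 single omissions. THRA, a thyroid hormone receptor, was at -0.41 ± 0.12 at 4 h (adjusted p = 0.0293), ended by 4 of 6. CEBPB, ESRRA and NR1H3 did not pass, with 4 h differences of 0.41, 0.20 and -0.15.

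Other transporters and brush border genes of the proximal tubule were compared with SLC34A1. Of 25 measured, 1 rose and 4 fell at 4 h, 4 fell at 8 h and 1 fell at 12 h. The falls made up 16%, 16% and 4% of the list, against 6.63%, 2.87% and 1.51% of all probe sets. SLC5A2, the glucose transporter SGLT2, was lower at the same 3 times as SLC34A1, with -0.45 ± 0.13 at 4 h (adjusted p = 0.0255), -0.68 ± 0.13 at 8 h (0.00473) and -0.71 ± 0.13 at 12 h (0.0063). Of the calls on SLC5A2, single omissions ended the one at 4 h, 3 times in 6, while without all arrays of replicate 1 those at 4 and 12 h were lost (adjusted p = 0.0506 and 0.0565).

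Of the other genes that fell, SLC13A1 and PCK1 rose again between 4 and 12 h. SLC13A1, a sodium-sulfate cotransporter, fell by 0.79 ± 0.19 on the log2 scale at 4 h (adjusted p = 0.0102, ended by 2 of 6 single omissions) and stood at 0.056 at 12 h (0.948). PCK1, an enzyme of gluconeogenesis, was lower by -0.76 ± 0.17 at 4 h (adjusted p = 0.00757) and stood at -0.046 at 12 h. From 4 to 12 h SLC13A1 rose by 0.85 ± 0.19 (adjusted p = 0.0111) and PCK1 by 0.71 ± 0.17 (0.0179), where 3.62% of all probe sets passed as higher. The endocytic receptor LRP2 was lower at 4 h (-0.41 ± 0.10, adjusted p = 0.0117) and 8 h (-0.45 ± 0.10, 0.013), and SLC3A1, a subunit of the cystine transporter, at 8 h (-0.55 ± 0.12, 0.0111). Single omissions ended these 3 calls 2, 3 and 2 times in 6. At 12 h neither gene passed, with differences of -0.30 for LRP2 (adjusted p = 0.144) and -0.36 for SLC3A1 (0.128). Both still had all arrays below those of 0 h, as did 14.2% of all probe sets.

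SLC1A1, a glutamate transporter, was the list's riser, at 0.46 ± 0.080 at 4 h (adjusted p = 0.0012). The glucose transporter SLC5A1 had a larger 4 h difference than SLC34A1 (-1.02 ± 0.52) but did not pass (adjusted p = 0.248), its 0 h arrays spanning 7.48 to 9.33. SLC13A2 and SLC13A3, the dicarboxylate carriers, were at -0.0058 and -0.30 at 4 h and did not pass.

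**Figure D4:**
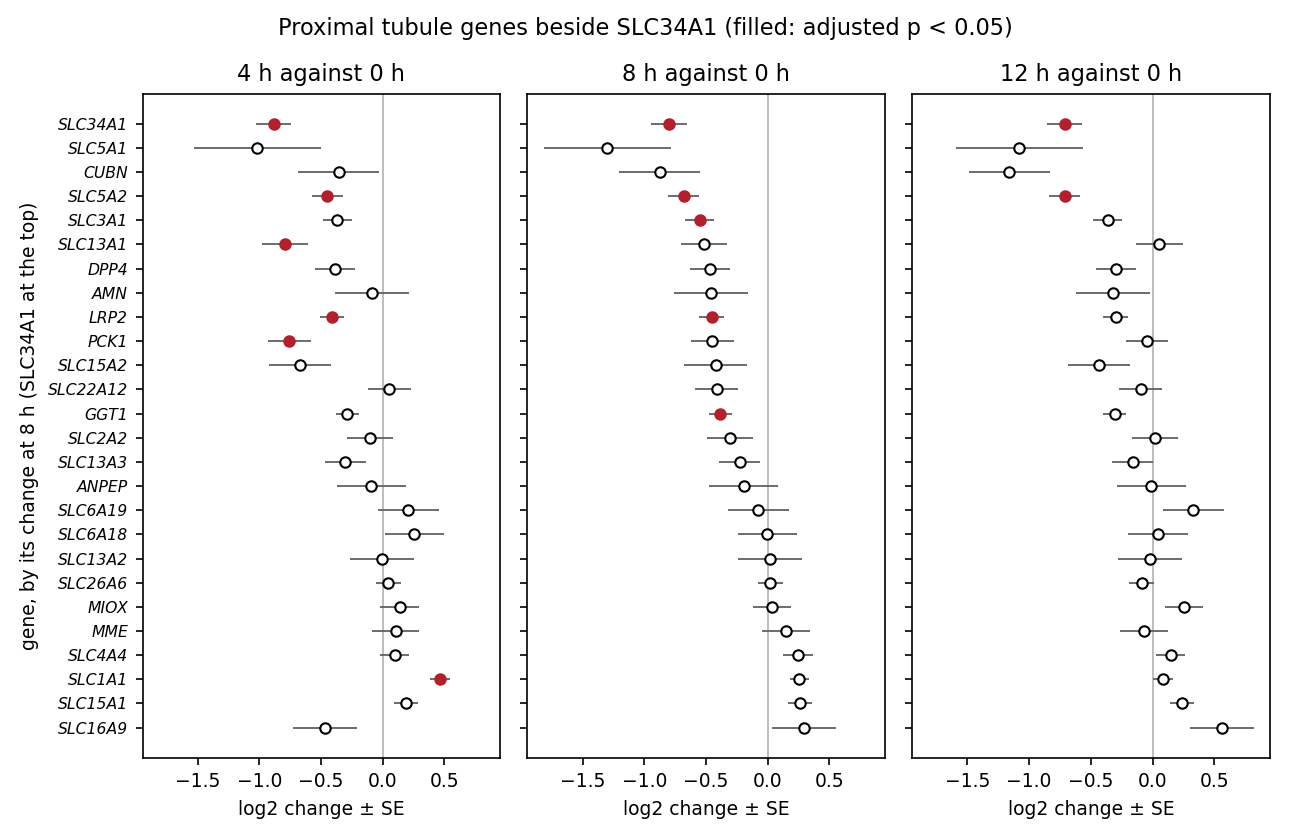
Log2 change from 0 h (horizontal, ± SE of the model) at 4, 8 and 12 h for SLC34A1 and the 25 other measured proximal tubule genes, ordered by their 8 h change with SLC34A1 at the top, with filled points where the adjusted p was under 0.05. SLC34A1 and SLC5A2 are filled as lower in all 3 panels, SLC13A1 and PCK1 at 4 h alone, and SLC1A1 as higher at 4 h.

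Genes whose signal followed the members most closely were sought among the 2540 probe sets with 1 symbol that passed the F test, by Pearson's r over the 18 arrays. Since the arrays fall into those of 0 to 1 h and those of 4 to 12 h, all these r values include the shift between the 2 sets of times, and they are given as a description. The closest to SLC34A2 were PTCD3, a protein of the mitochondrial ribosome (0.974), LPAR1, a receptor for lysophosphatidic acid (0.970), the mitochondrial isocitrate dehydrogenase subunit IDH3A (0.969), the phosphatidylinositol transfer gene PITPNC1 (0.969) and the hexokinase HK2 (0.967). Their 4 h differences, from 0.76 for IDH3A to 1.504 for HK2, were smaller than the 2.74 of SLC34A2.

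The closest to SLC34A1 were MID1, a ubiquitin ligase on microtubules (0.969), the methyltransferase SETD3 (0.968), IFT122, a component of transport along the cilium (0.965), the RNA-binding helicase YTHDC2 (0.964) and WLS, the carrier of Wnt proteins to the cell surface (0.964). Their 4 h differences ran from -0.41 for SETD3 to -1.36 for MID1, around the -0.88 of SLC34A1. Within the 9 arrays of 0 to 1 h, r with SLC34A1 was 0.68 to 0.94 for these 5, and within the 9 of 4 to 12 h it was 0.69 to 0.84. For the 5 closest to SLC34A2, r was -0.30 (LPAR1) to 0.81 (PTCD3) within 0 to 1 h and 0.76 to 0.93 within 4 to 12 h.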

How the data were processed

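The authors deposited 1 log2 value per probe set and array, for 27558 probe sets, made with Transcriptome Analysis Console 2.0.0.9 per the submitters' processing notes; the summarization and normalization are not given in the sources used here. Array medians ran from 5.59 to 5.67, and values were used as deposited, with no filter or offset. Signals of arrays of 1 time correlated at 0.982 to 0.995. Symbols came from the platform annotation. The Entrez identifier given for the SLC34A2 probe set is in the RefSeq gene table (Sscrofa11.1) and that for SLC34A1 is not, so SLC34A1 rests on its symbol alone. The files name no genome build, so no position is stated, and no sequence was used here.

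A mean per time was fitted over all 18 arrays with limma 3.58.1 in R 4.3.3 (eBayes, 12 residual and 3.34 prior degrees of freedom). The fit was run on simulated data with noise independent between arrays, which does not test it where same-numbered arrays correlate. Tests were two-sided, with Benjamini-Hochberg adjustment over all probe sets and a threshold of 0.05. Labels call the replicates biological without saying whether cultures were separate, so p-values measure the spread between these samples. The number of arrays limits precision. Slide and scan date were not used here.

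Members and lists were chosen with earlier results of these data known. Named from each list were all carriers of phosphate, otherwise up to 6 called genes by size and up to 3 not called in list order. A gene's brightest probe set on average stood for it. Alternatives were a replicate block, quantile normalization, median centring, a filter on dim probe sets, a trended robust prior, the arrays of the times compared alone, and leaving out arrays.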

Additional observations from a re-analysis of the deposited data

Results flagged for a closer look

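In 3 instances the change of a gene differed between 2 time points by the test of that difference in limma. SLC34A1 differed between 1 and 4 h by -0.88 ± 0.14 (SE, adjusted p = 0.00095), and SLC34A2 by 2.64 ± 0.17 (adjusted p = 3.05e-06). Between 4 and 12 h SLC34A2 differed by -0.90 ± 0.17 (adjusted p = 0.00521), a comparison chosen after the values were seen. Groups of 3 arrays are too small for the rule on single outlying samples.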

How the results depend on the processing

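SLC34A2 passed as higher at 4 and 8 h under all 15 alternatives of each, with differences of 2.52 to 2.88 and 2.31 to 2.50, and at 12 h under 14 of 15. Up to 1 h the signal of SLC34A2 lay under every array median. It thus clears the filter on dim probe sets only through its signal from 4 h, so that alternative is no test of the rise. The replicate block changed no call on SLC34A1 or SLC34A2. Deviations of same-numbered arrays correlated above 0.1 in 39 of 45 pairs, against 14 of 90 pairs of other numbers, and best with their own number in 12 of 15 pairs with 0 h, a hint of pairing from the data. The numbers were still not taken to pair the arrays, since the rule asked for every pair to pass 0.1 and no label says what a number shares. The replicate block kept all 34 list calls and added, among the phosphate carriers, SLC34A3 at 12 h (-0.82, adjusted p = 0.0101), SLC20A1 at 8 h (-0.30, 0.0452) and SLC17A1 at 8 h (-0.46, 0.0385). With the replicate block, 322 probe sets passed at 1 h (211 without it), 3191 at 8 h (1681) and 1943 at 12 h (728). Quantile normalization turned 2 differences near 0, SLC34A1 at 1 h (0.0043) and SLC34A2 at 0.5 h (0.0070). Fitting the arrays of the 2 times alone left 1378 calls at 4 h (3568 in the full fit) and 229 at 8 h, and SLC34A2 from 4 to 12 h at -0.90 no longer passed (adjusted p = 0.0801). With dim probe sets left out, 1250 of those kept passed at 12 h. That filter keeps only probe sets with a mean above the median, so this count has a smaller base than the others. The causes were not tested.

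Leaving out 1 array, or all arrays of 1 replicate number (added after seeing the data), gave these ranges. SLC34A1 was at -0.10 to 0.12 at 0.5 h, -0.15 to 0.075 at 1 h, -1.01 to -0.73 at 4 h, -0.91 to -0.71 at 8 h and -0.80 to -0.60 at 12 h, with steps of -0.18 to 0.091 (0.5 to 1 h) and -1.05 to -0.66 (1 to 4 h), and its F test had an adjusted p of 0.000204 to 0.0847. SLC34A2 was at -0.057 to 0.020 at 0.5 h, -0.046 to 0.19 at 1 h and 1.72 to 2.03 at 12 h, with steps of -0.022 to 0.21 (0.5 to 1 h) and -1.07 to -0.69 (4 to 12 h). SLC34A2 minus SLC34A1 shifted by -0.15 to 0.086 at 0.5 h and -0.12 to 0.29 at 1 h. Calls over all probe sets were counted with 1 array left out only, not with a replicate number left out. They numbered 2113 to 4644 at 4 h, 703 to 1825 at 8 h and 234 to 425 at 12 h.

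List counts moved too. These counts leave aside the fits without all arrays of 1 replicate number, which ended 33 of the 34 list calls for replicate 2 or replicate 3. Over the other alternatives the phosphate carriers had 1 to 2 calls at 4 h, 0 to 3 at 8 h and 0 to 4 at 12 h. The scaffold list had 0 to 1 at 4 h and at 8 h, and the hormonal list 1 to 3, 0 to 2 and 0 to 1. The transcription factors had 2 to 6, 0 to 4 and 1 to 4, and the proximal tubule genes 1 to 10, 1 to 9 and 1 to 5. None of these other alternatives called a gene of these 5 lists at 0.5 or 1 h.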

Other observations

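Genes beside SLC34A1 and SLC34A2 on the pig RefSeq assembly were looked up after the members' values were known, taking 3 protein-coding genes on each side. SLC34A1 was placed there by its symbol alone, since the Entrez identifier of its probe set is not in that gene table. Whether the sequence measured by that probe set lies beside these genes is thus not established. Beside SLC34A1, RGS14, a regulator of G protein signalling, differed from 0 h by -0.25 at 4 h (adjusted p = 0.552), the cargo receptor LMAN2 by -0.14 (0.521) and the MYC network gene MXD3 by -0.35 (0.199). Beside SLC34A2, RBPJ, the DNA-binding factor of Notch signalling, differed by 0.064 (0.829). None of these 4 passed at 4, 8 or 12 h in limma, and the other 8 neighbours were not analysed here.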
